A study of Mus musculus with 12 samples.

Results

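Long noncoding RNA genes of the mouse dentate gyrus (DG) are described here, 9 in number: Malat1, Gm37376, Neat1, Meg3, Miat, Rian, Snhg11, Snhg14 and Kcnq1ot1. They were selected on their own counts in these libraries, as long noncoding genes (lncRNA genes, which are transcribed but not translated) grouped under the heading of nuclear retention, and all 9 were found among the 50600 gene identifiers of the count table. Their levels and differences between cell types are therefore given as a description without a test. Whole cells were lysed for these libraries, so where in the cell a transcript lies was not measured.

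The study applied limiting-cell RNA-seq, in which single-cell chemistry is used on a small pool of cells, to the neurogenic niche of the hippocampus. The DG was dissected from adult Nestin-GFP mice of 6 to 9 weeks, which carry green fluorescent protein under control of the Nestin gene, and all 3 cell types came from that one strain with no treatment. Live cells lacking CD31, CD45, O1 and O4, surface markers of endothelial cells, leukocytes and oligodendrocytes, were sorted on GFP and the glutamate transporter GLAST. Each library was amplified from 50 cells.

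Stem cells carried both GFP and GLAST, progenitors carried GFP without GLAST, and astrocytes carried GLAST without GFP. Each cell type had 4 libraries. Stem cell libraries keep the numbers of their titles, and the astrocyte and progenitor libraries are lettered a to d because their columns name only the cell type. The libraries of a cell type are described as biological replicates, each from a single mouse brain, and which libraries of different cell types share a mouse is not given in the sources used here. Total counts were 5357232 to 6253680 in astrocytes, 9041498 to 12535028 in progenitors and 5031166 to 10435711 in stem cells. Genes with at least 10 counts numbered 9430 to 11655, 16389 to 17015 and 13368 to 14175 in the same order. The sort left markers of other cells: summed neuron markers (12 genes, led by Camk2a and Map2) reached 970 to 6935 CPM (counts per 1000000, scaled as described with the first result) in astrocytes, 807 to 1294 in progenitors and 539 to 890 in stem cells. Summed oligodendrocyte lineage markers (10 genes, led by Olig1 and Mbp) reached 1758 to 2776 CPM in progenitors, 260 to 2947 in astrocytes and 180 to 553 in stem cells. The oligodendrocyte lineage sums differed in makeup as well: Olig1, a gene of oligodendrocytes and their precursors, averaged 1069 CPM in progenitors and 99.7 in astrocytes, and Mbp, a myelin gene, 51.7 and 777. Summed markers of endothelial and mural cells (8 genes, led by Vtn and Acta2) lay between 39.0 and 2048 CPM in progenitors and at most at 192 elsewhere. Astrocyte markers (10 genes, led by Aldoc and Slc1a3) summed to 17844 to 24133 CPM in astrocytes and 8469 to 11251 in progenitors, and were higher than either in stem cells at 26508 to 35532, so these markers did not set the astrocyte libraries apart from stem cells. The other cell types were highest in their own markers: neurogenic progenitor markers (10 genes, led by Sox11 and Calb2) summed to 1065 to 1847 CPM in progenitors, 9.17 to 357 in astrocytes and 16.2 to 67.8 in stem cells. Neural stem cell markers (10 genes, led by Thrsp and Hopx) summed to 1930 to 2477 CPM in stem cells, 830 to 1689 in astrocytes and 807 to 1260 in progenitors.

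As background, many long noncoding RNAs stay in the nucleus, where they build or occupy nuclear bodies or act on the chromatin they are transcribed from. Malat1 collects in nuclear speckles beside splicing factors, Neat1 is the scaffold of paraspeckles, and Miat forms its own nuclear domains in neurons and neural progenitors. Meg3, Rian, Snhg14 and Kcnq1ot1 come from imprinted domains, in which only one parental allele is transcribed, and Snhg11, Snhg14 and Rian are hosts of small nucleolar RNAs.

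Malat1 lies on chr19:5795690-5802672 (GRCm38, minus strand) as a single exon of 6983 bases. Gm37376 is a gene model of 453 bases on chr19:5801941-5802393, on the plus strand, of the annotation type given to models still awaiting experimental support, and all of its bases lie inside the Malat1 exon, at positions 280 to 732 counted from the Malat1 start. The authors counted reads without regard to strand, so counts of Gm37376 and of Malat1 over these bases cannot be told apart. A read over shared bases could be counted for both genes: of 992 genes whose exons lie wholly inside the exons of another gene, 682 had counts, and 4 of them exceeded every gene around them in some library. The Malat1 sequence is shown at 2 places because the oligo-dT primer of the library kit pairs with runs of A. The first is 200 bases around the Gm37376 boundary, chr19:5801791-5801990, Malat1 positions 683 to 882, with runs of at least 4 A in capitals; its first 50 bases are shared with Gm37376. The second is chr19:5795928-5796059, positions 6614 to 6745, with the longest A run of the transcript, 12 bases, in capitals; this tract is known to fold back on the uridine-rich stretches before it, and the cut behind it releases a small tRNA-like RNA. Both are from GENCODE M21 on GRCm38 and are written 5′ to 3′ along Malat1.
Malat1 at the Gm37376 boundary: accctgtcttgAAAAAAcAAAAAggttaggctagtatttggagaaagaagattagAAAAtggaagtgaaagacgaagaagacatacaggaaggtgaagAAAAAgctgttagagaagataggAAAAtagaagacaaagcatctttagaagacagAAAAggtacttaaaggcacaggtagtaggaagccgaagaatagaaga
Malat1 end: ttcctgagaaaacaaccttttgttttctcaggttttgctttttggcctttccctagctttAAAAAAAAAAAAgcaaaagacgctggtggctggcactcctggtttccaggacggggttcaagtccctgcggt

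Over the 200 bases that follow the shared stretch, 50.5% of the Malat1 bases were A, against 31.8% inside it and 28.6% over the whole transcript. Of all 200-base stretches of Malat1, 99.7% held a smaller share of A than that one. However, of the 5 runs of at least 6 A in Malat1, 0 began within those 200 bases. The run of 6 A printed above lies inside the shared stretch. The longest A run, at positions 6674 to 6685, stands 298 bases before the annotated end. Counts were dense where Gm37376 lies, if every Gm37376 count is taken as also a Malat1 count and removed from the rest. Per base, the Gm37376 count was then 30.2 to 63.1 times the count of the remaining 6530 Malat1 bases, lowest in stem cell 4 and highest in astrocyte c. Reads that lie only partly inside Gm37376 can be counted for it too, which could raise this ratio. The part played by the A-rich sequence in this density was not tested.

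**Figure D1:**
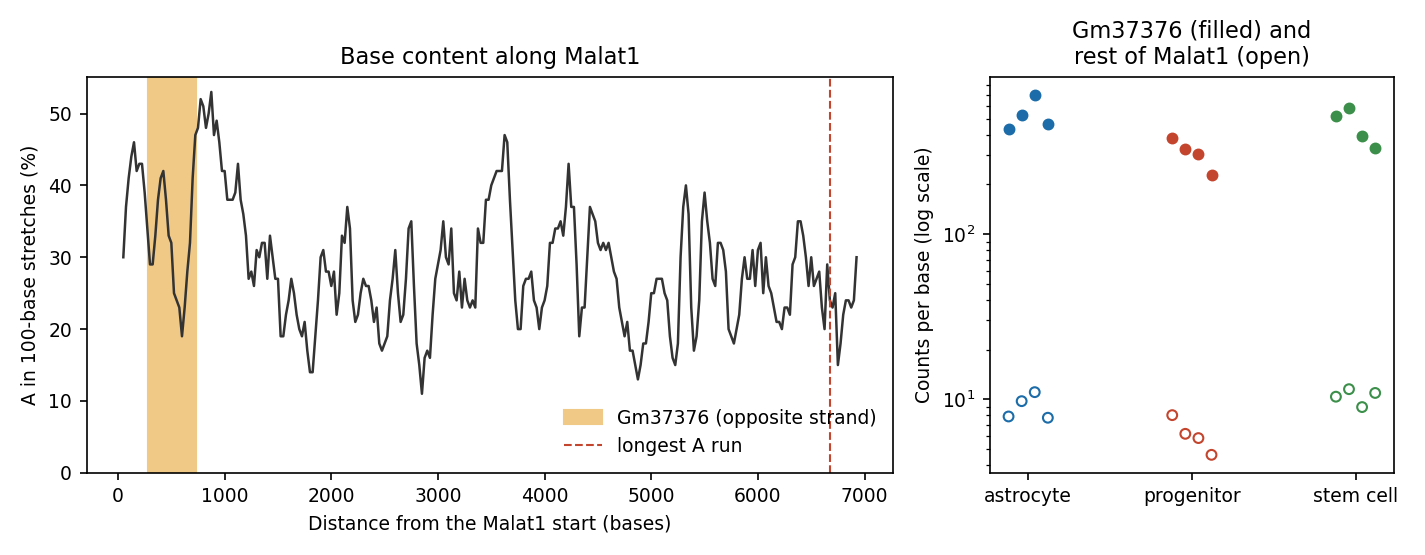
Left, percent of A in 100-base stretches along Malat1 by distance from its start in bases, with the Gm37376 stretch shaded and the longest A run as a dashed line. Right, counts per base (log scale) of Gm37376 (filled) and of the rest of Malat1 (open), one point per library. For the rest, every Gm37376 count is taken as also a Malat1 count and removed. In every library the filled point lies above the open one, by 30.2 to 63.1 times.

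Malat1 took the largest part of the counts of these genes in every library and was highest in astrocytes, lower in stem cells and lowest in progenitors. Levels are CPM after scaling by TMM (trimmed mean of M-values), and errors are SD over n = 4 libraries. Malat1 was at 53590, 55605, 77373 and 52866 CPM in astrocytes a to d. It was at 30979, 44166, 29506 and 41015 CPM in stem cells 1 to 4, and at 15617, 15348, 16115 and 11407 CPM in progenitors a to d. No 2 cell types overlapped on this scale. Over all genes tested, 5.98% had every astrocyte library above every progenitor library, and 14.9% the reverse. For progenitors above stem cells it was 11.7%, and 7.64% the reverse. For astrocytes above stem cells it was 3.75%, and 6.23% the reverse. These shares stand beside each such separation given below. The fitted log2 fold change of Malat1 was 2.01 (SE 0.16) for astrocytes over progenitors, a 4.04-fold difference. It was -1.34 (SE 0.17) for progenitors over stem cells and 0.70 (SE 0.17) for astrocytes over stem cells.

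Gm37376 followed Malat1 in every library. It was at 42417 to 62985 CPM in astrocytes, 22226 to 34353 in stem cells and 8824 to 12642 in progenitors, again without overlap. Its count was 79.0 to 81.4% of the Malat1 count in astrocytes, 76.8 to 78.6% in progenitors and 67.7 to 77.8% in stem cells, and the widest exact 95% interval, that of progenitor d, was 77.1 to 77.6%. Its log2 fold changes were 2.06 (SE 0.17), -1.28 (SE 0.16) and 0.81 (SE 0.17) in the same order as for Malat1. If every Gm37376 count is taken as also a Malat1 count and removed, Malat1 was left with 10283 to 14388 CPM in astrocytes, 6947 to 13246 in stem cells and 2583 to 3618 in progenitors. On these remaining counts astrocytes and stem cells overlapped, and progenitors lay below both.

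As a share of all counts on genes, Malat1 held 4.17, 4.85, 6.61 and 4.84% of the astrocyte libraries. It held 2.89, 4.33, 2.76 and 4.39% of the stem cell libraries and 1.80, 1.88, 1.95 and 1.37% of the progenitor libraries. Progenitors stayed below both other cell types by share, whereas astrocytes and stem cells overlapped, unlike on the TMM scale. All 9 genes together held 9.28% ± 1.92 of the counts in astrocytes, 3.17% ± 0.47 in progenitors and 6.31% ± 1.47 in stem cells. Without Gm37376, whose reads can be counted for Malat1 as well, they held 4.23 to 6.65% in astrocytes, 2.82 to 4.44% in stem cells and 1.43 to 2.0% in progenitors, in which astrocytes and stem cells again overlapped. The exact 95% interval of any single share was at most 0.0201 percentage points to either side, and such intervals cover counting error only. Malat1 was the first gene by count in all 4 astrocyte libraries and the first or second in the 8 others. The cell type with fewest genes of at least 10 counts was also the one with most Malat1. The paper calls the quality of the astrocyte cDNA suboptimal. The part of cDNA quality in the Malat1 difference was not tested, since thinning evens out total counts only. With every library thinned to 5031166 counts, the log2 fold changes of Malat1 were 2.06, -1.36 and 0.70 for astrocytes over progenitors, progenitors over stem cells and astrocytes over stem cells, each within its SE of the value from all counts.

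**Figure D2:**
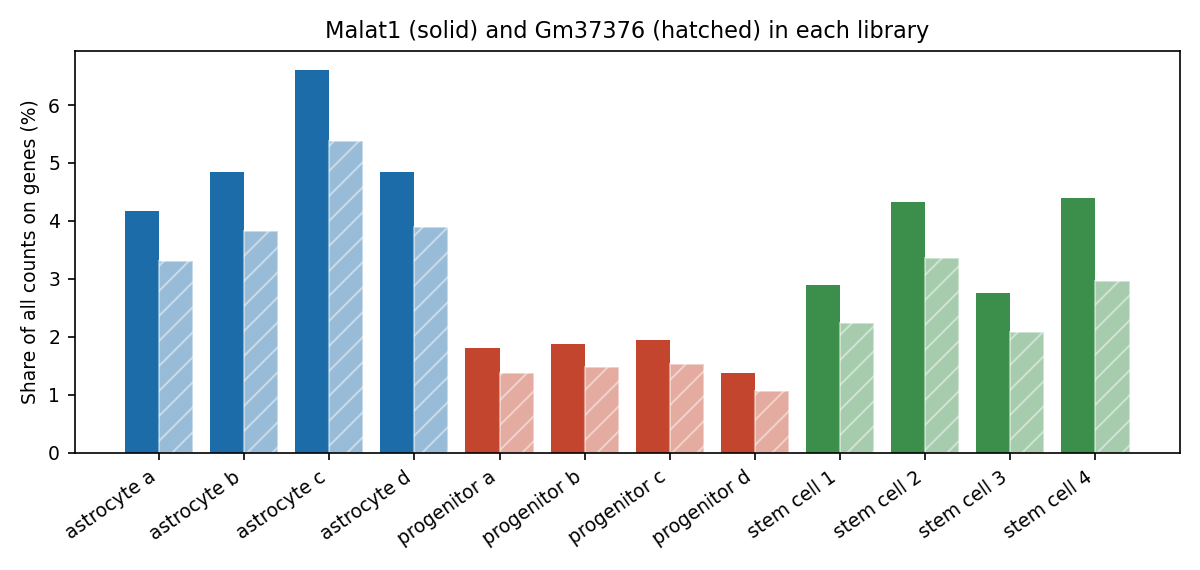
Bars give the share of all counts on genes (%, axis from 0) held by Malat1 (solid) and Gm37376 (hatched) in each of the 12 libraries, coloured by cell type. Malat1 lies between 4.17 and 6.61% in astrocytes, 2.76 and 4.39% in stem cells and 1.37 and 1.95% in progenitors.

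Neat1 (chr19:5824708-5845478, minus strand, 20771 bases), the architectural RNA of paraspeckles, was at 574, 746, 272 and 445 CPM in astrocytes a to d. It was at 566, 418, 532 and 380 CPM in stem cells 1 to 4 and at 353, 293, 169 and 144 CPM in progenitors a to d. Progenitors lay below stem cells without overlap on the TMM scale but overlapped them by share of counts, and they overlapped astrocytes on both. Its log2 fold change was -1.01 (SE 0.29) for progenitors over stem cells, 1.06 (SE 0.40) for astrocytes over progenitors and 0.09 (SE 0.34) for astrocytes over stem cells. Unlike Malat1, which was highest in astrocyte c, Neat1 was lowest there among the astrocyte libraries.

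Miat (chr5:112213228-112229395, minus strand), a nuclear RNA of neurons that binds splicing factors, was highest in progenitors. It was at 26.1, 42.5, 19 and 73.5 CPM in progenitors a to d, at 10.2, 0, 3.39 and 0.611 CPM in astrocytes a to d, and at 0, 3.66, 1.12 and 5.20 CPM in stem cells 1 to 4. Every progenitor library lay above every other library, while astrocytes and stem cells overlapped. Of all genes tested, 14.9% had progenitors wholly above astrocytes and 11.7% wholly above stem cells. The log2 fold change of Miat was 3.99 (SE 1.12) for progenitors over stem cells and -3.56 (SE 1.42) for astrocytes over progenitors. Of its exonic bases, 24.3% are shared with Gm26953 on the opposite strand, and reads of the pair cannot be told apart.

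Snhg11 (chr2:158375638-158386145, plus strand), a small nucleolar RNA host known from neurons, was at 37.3, 21.4, 55.9 and 102 CPM in progenitors a to d. It was at 6.31, 17.1, 30.9 and 22.2 CPM in astrocytes a to d and at 0, 0.131, 1.99 and 1.30 CPM in stem cells 1 to 4. Stem cells lay below both other cell types, and progenitors overlapped astrocytes. The log2 fold change was 5.96 (SE 1.14) for progenitors over stem cells, 4.44 (SE 1.60) for astrocytes over stem cells and -1.5 (SE 0.81) for astrocytes over progenitors. A count of 3, the floor used for a gene at 0, equals 0.207 to 0.653 CPM depending on the library. The values of stem cells 1 and 2 lay below that floor, and those of stem cells 3 and 4 rested on 16 and 7 counts. GENCODE M21 lists Snhg11 as protein coding, so it was the 1 gene of the 9 outside that annotation's lncRNA set. Summed neurogenic progenitor markers were 1065 to 1847 CPM in progenitors against 16.2 to 67.8 in stem cells, and their part in the Miat and Snhg11 differences was not tested. Within astrocytes, Snhg11 was lowest and Miat highest (10.2 CPM) in library a, where summed neuron markers were highest at 6935 CPM. The part of neuron RNA in either level was not tested. In such pools of cells, fewer cells of a type and less RNA per cell cannot be told apart.

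The promoters of Miat and Snhg11 are shown because these genes had the largest fold changes of the 9 for progenitors over stem cells. They are RefSeq sequences on GRCm38.p6, chr5:112228899-112229198 (minus strand) and chr2:158375463-158375762 (plus strand), from 250 bases before to 50 bases after the RefSeq start, written 5′ to 3′ with each CG dinucleotide in capitals. RefSeq starts can differ from those of GENCODE M21. The Miat stretch lies wholly inside the Miat gene of GENCODE M21, whose start on the minus strand is at 112229395.
Miat promoter: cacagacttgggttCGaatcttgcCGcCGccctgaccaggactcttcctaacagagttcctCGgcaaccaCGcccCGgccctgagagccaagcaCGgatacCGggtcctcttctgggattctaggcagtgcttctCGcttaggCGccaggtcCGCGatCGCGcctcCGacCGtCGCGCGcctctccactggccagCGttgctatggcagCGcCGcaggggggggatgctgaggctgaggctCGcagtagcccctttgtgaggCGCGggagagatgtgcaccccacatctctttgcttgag
Snhg11 promoter: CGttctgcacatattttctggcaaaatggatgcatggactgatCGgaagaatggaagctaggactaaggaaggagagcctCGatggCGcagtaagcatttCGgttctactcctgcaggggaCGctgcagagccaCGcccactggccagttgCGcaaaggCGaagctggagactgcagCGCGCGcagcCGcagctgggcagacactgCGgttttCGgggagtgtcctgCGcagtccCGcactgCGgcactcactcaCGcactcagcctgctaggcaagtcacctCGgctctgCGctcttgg

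The Miat promoter held 25 CG dinucleotides and that of Snhg11 held 21. The median over 32851 promoters of the same length was 7, and 81.6% and 75.2% of them held fewer than Miat and Snhg11. Among the others, the Malat1 promoter held 10, Kcnq1ot1 9, Snhg14 2 and Rian 0, and the Meg3 promoters held 13 and 1. A CG dinucleotide was present in 94.6% of all promoters. RefSeq promoters were matched for 7 of the 9 genes, all but Gm37376 and Neat1.

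Meg3 (chr12:109541001-109571726, plus strand), a maternally expressed RNA of the Dlk1-Dio3 domain, was at 17, 9.21, 37.6 and 17.7 CPM in progenitors a to d. It was at 12.4, 27.3, 6.39 and 5.09 CPM in astrocytes and at 1.85, 5.35, 3.85 and 9.85 CPM in stem cells. Progenitors lay above stem cells by share of counts but overlapped them on the TMM scale, with a log2 fold change of 1.93 (SE 0.73). Rian (chr12:109603940-109661716, plus strand), transcribed from the same domain, was at 0 to 6.53 CPM in astrocytes, 0 to 4.91 in progenitors and 0 to 2.26 in stem cells, and all cell types overlapped. Rian was at 0 in 1 library of each cell type, and its highest counts were 30 in astrocytes, 71 in progenitors and 22 in stem cells. Of 8 other genes listed for this domain, 3 passed the count filter in each comparison and none was called by edgeR. At an unadjusted p under 0.05 there was 1 for progenitors against stem cells and 0 in the other comparisons, with the same numbers called by DESeq2. Dlk1, the paternally expressed growth regulator that names the domain, was at 0 in all 12 libraries, and Mirg, its microRNA host, was above 0 in 1 library, at 0.1996 CPM.

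Kcnq1ot1 (chr7:143203458-143296549, minus strand), an RNA of 93092 bases transcribed from the paternal allele that silences neighbouring genes, was at 172, 207, 203 and 82.5 CPM in astrocytes a to d. It was at 73.7, 119, 115 and 145 CPM in progenitors and at 25.3, 21.9, 65.1 and 54.1 CPM in stem cells. Stem cells lay below both other cell types on both scales, and astrocytes overlapped progenitors. The log2 fold change was 1.41 (SE 0.40) for progenitors over stem cells, 1.98 (SE 0.58) for astrocytes over stem cells and 0.53 (SE 0.43) for astrocytes over progenitors. Kcnq1, the potassium channel gene it runs antisense to, was at 0 in all astrocyte and stem cell libraries and at 0 to 0.457 CPM in progenitors. Cdkn1c, a cyclin-dependent kinase inhibitor of the same domain that is known as a target of Kcnq1ot1 silencing, was at 0 in all astrocyte and stem cell libraries and at 1.55 to 25.2 CPM in progenitors. With a floor of 3 counts per library, its mean in progenitors was at least 15.9-fold higher than in astrocytes and at least 23.5-fold higher than in stem cells. It reached the count filter through progenitors alone, so these are given without a test. Of the 12 genes of that domain list, Cd81 and Dhcr7 were lower in progenitors than in stem cells by edgeR, where 3.66% of all genes were, at log2 fold changes of -0.89 (SE 0.14, adjusted p = 0.00476) and -0.85 (SE 0.21, adjusted p = 0.035). The Dhcr7 call was lost in 7 of 8 fits without 1 library, with adjusted p up to 0.108, as well as with scaling by total counts and with the 12 libraries in one fit.

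Snhg14 (chr7:59307924-59975759, minus strand), which runs through the Prader-Willi region as an antisense of Ube3a, was at 8.99 to 18.9 CPM in astrocytes, 9.61 to 26.5 in progenitors and 11.1 to 26.8 in stem cells. All cell types overlapped, and its log2 fold changes were -0.29 (SE 0.85), 0.01 (SE 0.57) and -0.25 (SE 0.97) for astrocytes over progenitors, progenitors over stem cells and astrocytes over stem cells. It shares 1803 exonic bases with Ube3a on the opposite strand, so these reads cannot be assigned. Ube3a, a ubiquitin ligase, was at 143 ± 46.4, 120 ± 10.4 and 117 ± 32.6 CPM in astrocytes, progenitors and stem cells. Snrpn, the splicing protein gene of the region, was at 488 ± 368, 172 ± 54.0 and 113 ± 63.3 CPM. No gene of the 11 listed for this region was called by edgeR in any comparison, with 1 to 2 at an unadjusted p under 0.05 in each and 0 to 1 by DESeq2.

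**Figure D3:**
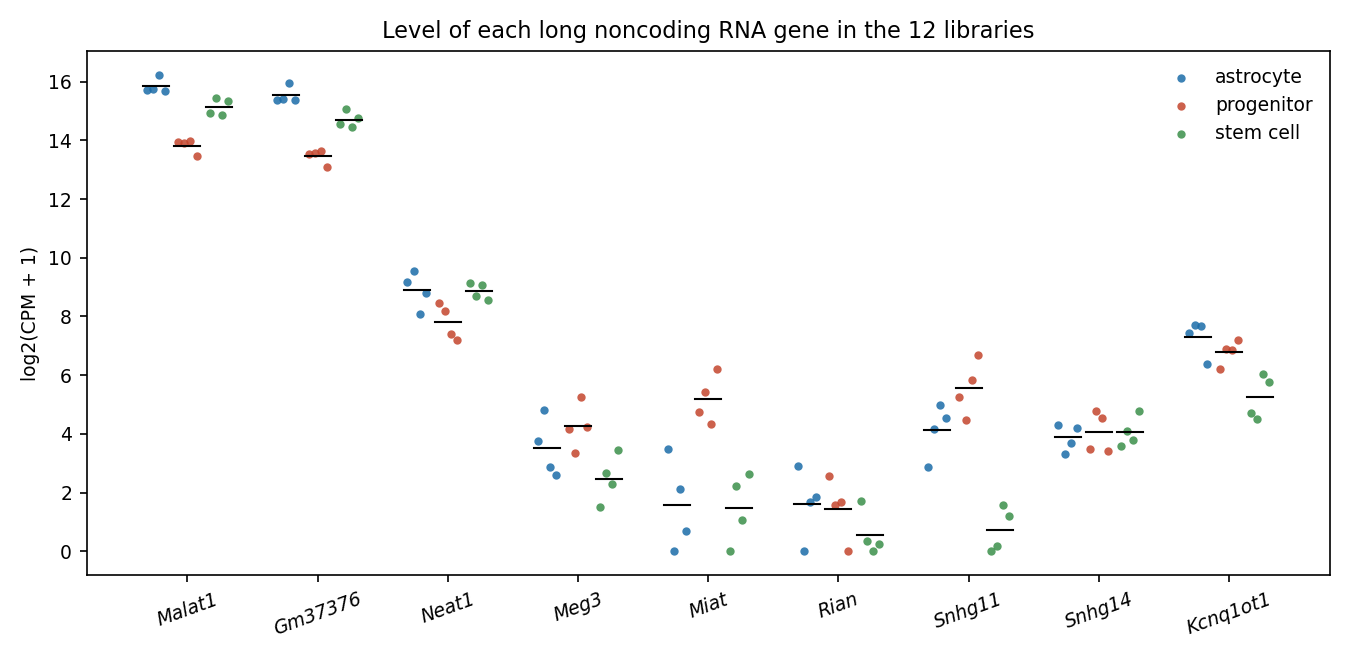
Level of each of the 9 genes as log2(CPM + 1), one point per library and a line at the mean of the 4 libraries of a cell type. Malat1 and Gm37376 lie highest in astrocytes and lowest in progenitors without overlap, Miat lies highest in progenitors, and Snhg11 lies lowest in stem cells.

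Per length of exon (CPM per kilobase), the order of the genes differed between cell types below the first 3. Gm37376, with its counts divided by only 453 bases, stood first in each, followed by Malat1 at 8572 ± 1680, 2094 ± 310 and 5215 ± 1041 CPM per kilobase in astrocytes, progenitors and stem cells. Neat1 came next at 24.5 ± 9.67, 11.5 ± 4.80 and 22.8 ± 4.28 CPM per kilobase. In progenitors Snhg11 (6.35 ± 4.08 CPM per kilobase) and Miat (4.33 ± 2.61) came next, and these neighbours did not differ beyond their spread, nor did Kcnq1ot1 (1.21 ± 0.31) and Meg3 (1.13 ± 0.67) after them. In astrocytes Snhg11 (2.24 ± 1.21 CPM per kilobase) and Kcnq1ot1 (1.78 ± 0.62) were neighbours within their spread. In stem cells Snhg14 (0.640 ± 0.268 CPM per kilobase) came after Neat1, followed within its spread by Kcnq1ot1 (0.447 ± 0.229), and Snhg11 stood last but one at 0.1004 ± 0.112. Rian was last in every cell type. The 7 genes other than Malat1 and Gm37376 together held 0.0452 to 0.0877% of the counts in astrocytes, 0.0509 to 0.0628% in progenitors and 0.0456 to 0.0578% in stem cells.

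All 9 genes passed the count filter in each comparison, and the choice of the genes used these same contrasts, so the following counts are read no further. Between astrocytes and progenitors, 2 of the 9, Malat1 and Gm37376, passed edgeR's adjusted threshold of 0.05 as higher in astrocytes, where 2.45% of all 14806 genes tested did, and none as higher in progenitors, where 6.18% did. Between progenitors and stem cells, Snhg11 passed as higher in progenitors (4.95% of 15427 genes) and Malat1 and Gm37376 as higher in stem cells (3.66%). Between astrocytes and stem cells none passed by edgeR, where 0.0468% of 12831 genes did, with 4 of the 9 at an unadjusted p under 0.05 (9.55% of all genes) and 2 called by DESeq2 (4.95% of all genes). The median log2 fold change of the 9 was 0.27, 1.41 and 0.81 in the 3 comparisons, against 0.03, 0.04 and 0.14 over all genes tested. The comparisons share libraries, so they are not independent of each other. Scaling by total counts alone moved the median of all genes by -0.46, 0.32 and -0.17 and all fold changes with it. Astrocytes over progenitors, the Malat1 difference was then 1.55, and Kcnq1ot1 stood at 0.05.

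**Figure D4:**
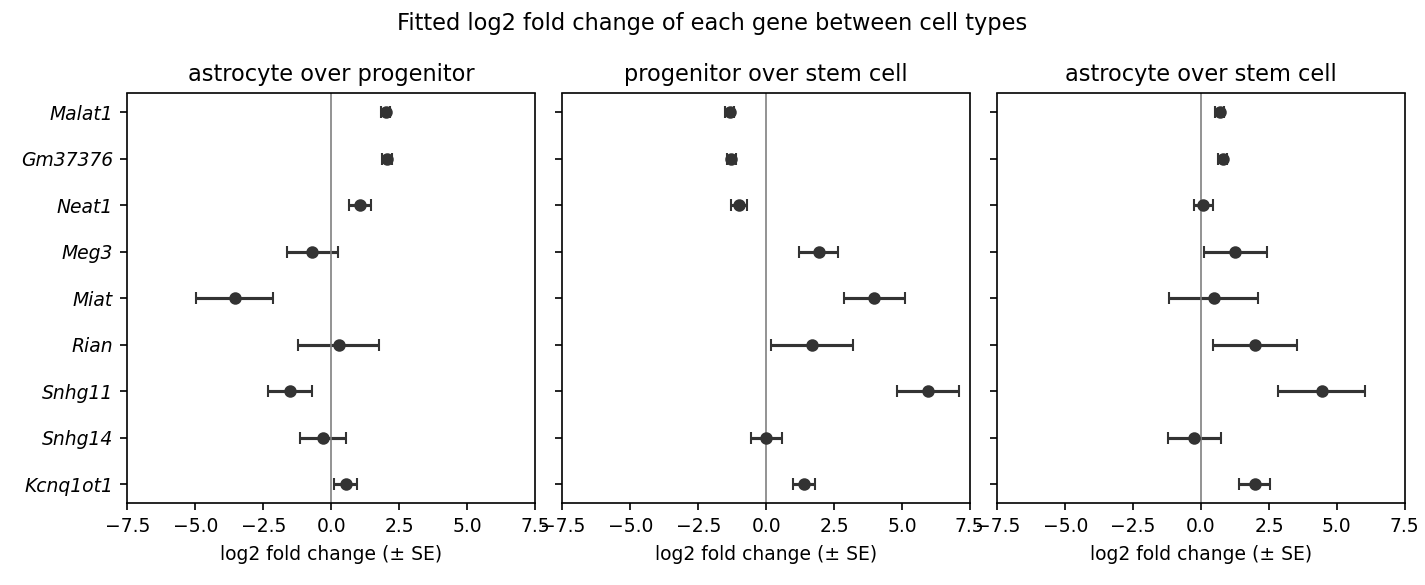
Fitted log2 fold change (edgeR, TMM) of each gene with its SE as bars, in 3 panels for the 3 pairs of cell types. Malat1 and Gm37376 have the narrowest bars (SE 0.16 to 0.17), and Snhg11 has the largest difference, 5.96 for progenitors over stem cells.

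By likeness over the 12 libraries, as Pearson's r of log2(CPM + 1) among 5622 genes that reached 10 counts everywhere, Malat1 was most like Gm37376 (r = 0.997), Sorcs2 (0.969) and Sash1 (0.967). Gm37376 was most like Malat1, then Sorcs2 (r = 0.967) and Dtna (0.967). Neat1 was most like Fbxo2 (r = 0.913), Cadm1 (0.906) and Adgrb3 (0.904). Kcnq1ot1 was most like Lcorl (r = 0.913), Ttc3 (0.874) and Pgbd5 (0.85), and Miat most like Eif4g2 (0.920), Bex2 (0.911) and Ptprs (0.906). Snhg11 was most like Adam22 (r = 0.867), Rap1gap (0.85) and Rpl6 (0.849), and Meg3 most like Plxna4 (0.848), Pknox2 (0.804) and Prr14l (0.794). Rian was most like Rpl10-ps1 (r = 0.877), Gm20390 (0.834) and Mapk3 (0.821), and Snhg14, the gene with the weakest likeness, most like Mir5121 (0.722), Rps26 (0.709) and Stambpl1 (0.686). The 12 points share 3 cell types and their depths, and for genes with few counts such as Rian a correlation of this kind says little.

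The proteins and RNAs that work with these genes were taken as lists. These lists, like those of domain genes above and of named lncRNA genes below, were chosen with earlier results of these data known. Their counts and p-values are therefore a description and not independent support. Of 12 genes for partners of Malat1 and Miat, 3 were higher in astrocytes than in progenitors, where 2.45% of all genes were, and 1 was lower, where 6.18% were. The median log2 fold change of the list was 0.60, against 0.03 over all genes tested. Son, a scaffold of nuclear speckles, was at 3587 ± 1130 CPM in astrocytes against 502 ± 93.0 in progenitors (log2 fold change 2.82, SE 0.27, edgeR adjusted p = 0.000954). Srrm2, the other speckle scaffold, was at 2865 ± 733 against 702 ± 83.5 CPM (log2 fold change 2.0, SE 0.22, adjusted p = 0.00132). Both calls held in all 8 fits without 1 library. Qk, a splicing regulator bound by Miat, was also higher in astrocytes (log2 fold change 1.18, SE 0.31, adjusted p = 0.043) and Hnrnpc, a nuclear RNA-binding protein gene, lower (-1.53, SE 0.41, adjusted p = 0.0465). Each of these calls was lost in 6 of 8 fits without 1 library, with adjusted p up to 0.136, and that for Qk also with scaling by total counts. In the same list, Son and Qk were lower in progenitors than in stem cells (log2 fold changes -1.02, SE 0.24, and -1.20, SE 0.17, edgeR adjusted p = 0.025 and 0.0029) and Celf3, a neuronal splicing factor, was higher (2.54, SE 0.67, adjusted p = 0.0436). The Qk call held without any 1 library, and those for Son and Celf3 were each lost in 6 of 8 such fits, with adjusted p up to 0.0772 and 0.115. Both were lost with the 12 libraries in one fit, and that for Son also with scaling by total counts. Srrm2 was higher in astrocytes than in stem cells (log2 fold change 2.06, SE 0.24, edgeR adjusted p = 0.00996), a call lost in 4 of 8 fits without 1 library, with adjusted p up to 0.0839. Son thus followed the order of Malat1 in its means, and Qk had its lowest mean in progenitors as Malat1 did. Other genes of the list did not: Srrm2 was at 702 ± 83.5 CPM in progenitors and 677 ± 112 in stem cells. Hnrnpc, Srsf3 and Celf3 had their highest means in progenitors.

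Of 12 genes for paraspeckle proteins, which assemble on Neat1, none was called between astrocytes and progenitors by edgeR (4 at an unadjusted p under 0.05, 2 by DESeq2). Nono, Nudt21 and Matr3 were higher in progenitors than in stem cells, where 4.95% of all genes were. Their log2 fold changes were 1.5 (SE 0.25, edgeR adjusted p = 0.00625), 1.43 (SE 0.32, adjusted p = 0.0201) and 0.95 (SE 0.21, adjusted p = 0.0186). The Nono call held without any 1 library, while those for Nudt21 and Matr3 were lost in 3 and 2 of 8 such fits, with adjusted p up to 0.0666 and 0.0621. All 3 calls were lost when the 12 libraries were fitted together. None of these genes was called between astrocytes and stem cells by edgeR (1 at an unadjusted p under 0.05, 1 by DESeq2).

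Of 14 genes for nuclear RNA decay and export, 4 were higher in astrocytes than in progenitors and none was lower, where 2.45% and 6.18% of all genes were, with a median log2 fold change of 0.08 for the list and 0.03 for all genes. Zfc3h1 and Pabpn1, both of the pathway that brings polyadenylated nuclear RNA to the exosome, were at 438 ± 97.3 and 341 ± 110 CPM in astrocytes against 90.3 ± 27.5 and 83.7 ± 23.6 CPM in progenitors. Their log2 fold changes were 2.26 (SE 0.36, edgeR adjusted p = 0.00979) and 2.01 (SE 0.38, adjusted p = 0.016), and both calls held without any 1 library. Thoc2, of the export complex THO, and Tpr, of the nuclear pore basket, had log2 fold changes of 1.52 (SE 0.34, edgeR adjusted p = 0.0207) and 1.65 (SE 0.45, adjusted p = 0.047). These calls were lost in 3 and 5 of 8 fits without 1 library, with adjusted p up to 0.0682 and 0.149, and both with scaling by total counts. None of the 14 was called between progenitors and stem cells or between astrocytes and stem cells by edgeR (0 and 4 at an unadjusted p under 0.05, 0 and 4 by DESeq2).

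The lncRNA genes outside the 9 were tested as a whole, since the choice of the 9 did not use them. GENCODE M21 lists 10971 of them in the table, of which 6309 had counts. Their share of all counts was 4.13% ± 0.17 in astrocytes, 3.13% ± 0.09 in progenitors and 3.11% ± 0.39 in stem cells (n = 4 each). Astrocytes lay above both others without overlap, by 1.00 and 1.02 percentage points (two-sided exact permutation p = 0.0286 each, the smallest that 4 against 4 allows, 0.0429 after Benjamini-Hochberg adjustment over the 3 comparisons). Progenitors and stem cells differed by 0.0200 percentage points (exact permutation p = 0.943), whereas the summed share of the 9 genes, carried by Malat1 and Gm37376, was lower in every progenitor library than in any stem cell library. Because counting ignored strand, part of the share outside the 9 can come from overlapping genes. Without lncRNA genes that overlap another gene, that share was 2.09% ± 0.16 in astrocytes, 1.11% ± 0.05 in progenitors and 1.19% ± 0.15 in stem cells. Astrocytes again lay above both others without overlap. Gm26917, an rRNA-like gene on chr17:39843013-39846341, held 0.788% ± 0.0738 of the astrocyte counts against 0.191% ± 0.0349 and 0.254% ± 0.0594 in progenitors and stem cells, although the authors had removed reads that matched rRNA. Without it, astrocytes held 0.491 percentage points more than stem cells, with overlap (exact permutation p = 0.0857), and 0.408 more than progenitors (exact permutation p = 0.0286, adjusted 0.0857).

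**Figure D5:**
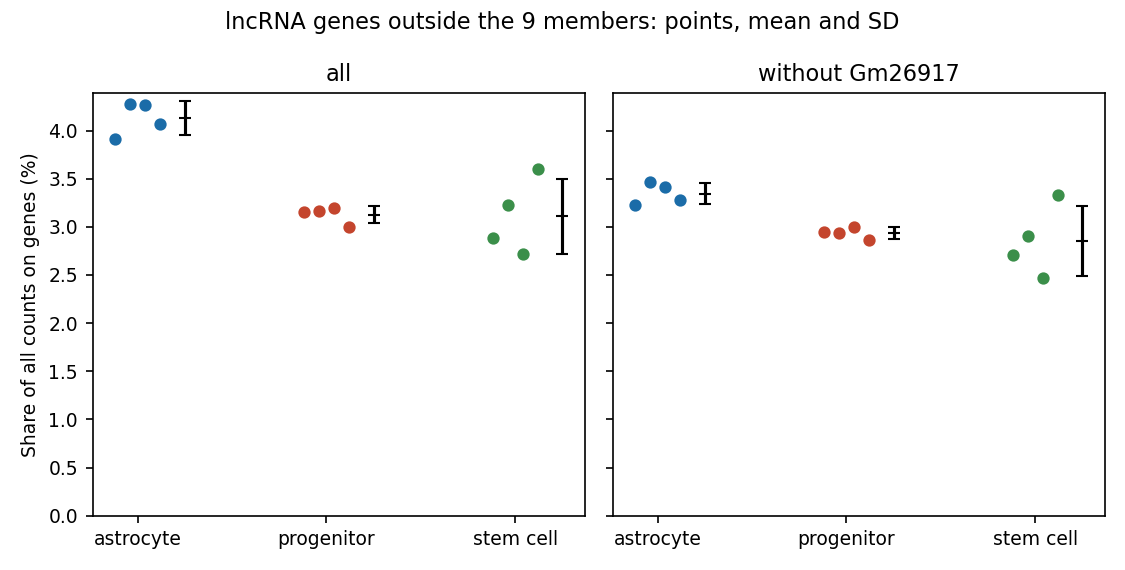
Share of all counts on genes (%, axis from 0) held by lncRNA genes outside the 9, one point per library with the mean and SD of each cell type beside it, for all such genes (left) and without Gm26917 (right). Astrocytes lie above both others on the left, at 3.91 to 4.27%, and overlap stem cells on the right.

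After Gm26917, the lncRNA genes outside the 9 with the highest mean share were Gm3764, Gm6145, AW047730 and Gm45774. Gm3764 held 0.233% ± 0.0368 of the counts in astrocytes, 0.104% ± 0.0159 in progenitors and 0.141% ± 0.00877 in stem cells, the same order as Malat1 at a far lower level. Gm6145 held 0.0783% ± 0.0188, 0.0280% ± 0.00604 and 0.0586% ± 0.00900, again in that order. AW047730 held 0.0415% ± 0.00814, 0.0223% ± 0.00201 and 0.0392% ± 0.00858, whereas Gm45774 was highest in stem cells at 0.0519% ± 0.0240 against 0.0224% ± 0.00410 in astrocytes and 0.0240% ± 0.00555 in progenitors.

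Gene by gene, 171 of 1880 lncRNA genes outside the 9 were called between astrocytes and progenitors by edgeR, 20 higher in astrocytes and 151 in progenitors (9.10%, against 8.63% of all genes). Between progenitors and stem cells, 108 of 2130 were called, 75 higher in progenitors and 33 in stem cells (5.07%, against 8.60% of all genes). These directions turned with the filter: with at least 10 counts in every library, which drops genes absent from a cell type, 17 were higher in astrocytes and 2 in progenitors in the first comparison, and 13 higher in progenitors and 46 in stem cells in the second. DESeq2 gave 116 against 186 and 99 against 90. Between astrocytes and stem cells 2 of 1463 were called (0.137%, against 0.0468% of all genes), Gm42418 and Gm26917, both higher in astrocytes. Among those that reached 10 counts throughout and whose cell types stood apart, Gm42418 was at 960 ± 311 CPM in astrocytes, 49.1 ± 9.02 in progenitors and 95.9 ± 28.5 in stem cells. Gm42418 was grouped here with Gm26917 and AY036118 as rRNA-like, so residual rRNA reads can be part of its level. Its log2 fold changes from astrocytes were 4.26 (SE 0.33, edgeR adjusted p = 0.000288) over progenitors and 3.30 (SE 0.36, adjusted p = 0.00635) over stem cells. Gm26917 followed at 1.81 (SE 0.18, adjusted p = 0.00635) over stem cells, and both calls against stem cells were lost without stem cell 3 or stem cell 4, with adjusted p up to 0.0762. Gm45153 was higher in astrocytes than in progenitors by 3.55 (SE 0.75, adjusted p = 0.0169), a call lost without progenitor b, c or d (adjusted p up to 0.059). Junos, antisense to Jun, and Gm28221 were higher in progenitors than in stem cells by 3.60 (SE 0.40, adjusted p = 0.000939) and 2.91 (SE 0.62, adjusted p = 0.0165), and Gm11681 and Gm15756 were lower by -2.92 (SE 0.55, adjusted p = 0.00967) and -2.55 (SE 0.52, adjusted p = 0.013). Gm28221 lost its call without progenitor c or d (adjusted p up to 0.0619), and all 4 calls were lost with the 12 libraries in one fit. Gm42418, Gm28221 and Gm15756 share 99.5, 100.0 and 74.5% of their exonic bases with other genes.

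Among 39 lncRNA genes with names known from the literature, 4 were called between astrocytes and progenitors (11.8% of 34 tested, against 8.63% of all genes). Beside the rRNA-like Gm26917 and Gm42418, Snhg20, a small nucleolar RNA host, was at 240 ± 30.1 CPM in astrocytes, 75.7 ± 16 in progenitors and 150 ± 18.0 in stem cells, the order of Malat1. It was higher in astrocytes than in progenitors (log2 fold change 1.64, SE 0.35, edgeR adjusted p = 0.017) and lower in progenitors than in stem cells (-1.02, SE 0.21, adjusted p = 0.0158). Each call was lost without progenitor a, b or d, with adjusted p up to 0.0612, and with scaling by total counts, and the second also with the 12 libraries in one fit. Snhg18, the fourth of the 4, was at 0 in all astrocyte libraries and at 2.76 ± 1.06 CPM in progenitors, at least 4.57-fold higher with a floor of 3 counts per library. It reached the count filter through progenitors alone, and its call was lost with thinned counts and without a count filter. Pantr1, a neural lncRNA beside Pou3f3, was at 69.5 ± 11.9 CPM in progenitors against 179 ± 41.3 in stem cells (log2 fold change -1.39, SE 0.24, edgeR adjusted p = 0.00677), a call lost with the 12 libraries in one fit. Mir124a-1hg, the host of a neuronal microRNA, was at 17.3 ± 3.64 CPM in progenitors and at 0 in 3 of 4 stem cell libraries, and it too reached the count filter without any stem cell library.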

How the data were processed

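The authors trimmed reads with AdapterRemoval, discarded those aligning to rRNA, mitochondrial DNA or PhiX with HISAT2 (v2.0.6 per the labels), aligned the rest to GRCm38.p4 and counted them per gene of GENCODE M14 with featureCounts, without strand. The deposited values are raw counts. Base calls came from CASAVA v1.8.2 per the labels. Libraries were prepared from polyadenylated RNA with the SMARTer v4 kit and have no molecular identifiers. Coordinates, gene types and exon overlaps were taken from GENCODE M21 (50376 of 50600 identifiers matched without version), which also shares the GRCm38 build. The genes and gene lists were chosen with earlier results of these data known.

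Genes reaching 10 counts in 4 or more of a pair's 8 libraries were fitted with edgeR v4.0.16 (TMM, quasi-likelihood test) in R v4.3.3, adjusting p-values by Benjamini-Hochberg across every gene fitted, with a threshold of 0.05. DESeq2 v1.42.0, used by the authors, was an alternative. CPM were scaled by TMM. Total counts ranged from 5031166 to 12535028, and exact 95% intervals cover counting error only. Shares of counts were compared by two-sided exact permutation tests. In counts simulated for astrocytes against progenitors (dispersion 0.5, 14806 genes), edgeR recovered 185 of 200 changed genes with 3 false calls. At dispersion 0.05 and in the other comparisons it recovered 192 to 200, with 4 to 15 false calls. DESeq2 made 37 to 53 false calls at dispersion 0.5 and 15 to 27 at dispersion 0.05. Recovery at the fold changes reported here, most of them smaller than those simulated, was not tested. Named were all 9 genes; of each list the called genes, at most 4 per comparison by fold change, and the direct neighbours of the 9; of other lncRNA genes the 2 largest called changes per direction among those reaching 10 counts throughout with cell types apart, and the 5 of highest share; the 3 genes most like each of the 9; and the 2 highest markers of each marker list, of which 1 list is not reported here. Dlx6os1, of the named lncRNA list, was not matched.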

Additional observations from a re-analysis of the deposited data

Results flagged for a closer look

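In groups of 4 libraries, a value was singled out when its gap to the nearest other, divided by the range of the group, exceeded Dixon's 95% critical value. Of 36 groups of values examined, 5 had such a value, and chance gives about 1 in 20. Malat1 in astrocyte c stood at 77370 CPM against 52870 to 55600 in the other astrocyte libraries, and Gm37376 in the same library at 62980 CPM against 42420 to 43940. Malat1 in progenitor d stood at 11410 CPM against 15350 to 16110, and Gm37376 there at 8824 CPM against 12000 to 12640. Since the reads of Gm37376 cannot be told from those of Malat1, these are 2 observations and not 4. Rian in stem cell 1 stood at 2.26 CPM against 0 to 0.261 in the other stem cell libraries. Without astrocyte c, the log2 fold change of Malat1 was 1.85 for astrocytes over progenitors and 0.53 for astrocytes over stem cells. Without progenitor d, it was 1.91 for astrocytes over progenitors and -1.22 for progenitors over stem cells.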

How the results depend on the processing

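Of 350 alternative values of the fold changes of the 9 genes, 335 kept their sign. Those of Malat1 and Gm37376 kept it in all 78, and the exceptions were values of Neat1, Miat, Rian and Snhg14 in comparisons where the difference was small against its SE. All 9 of the values that moved by more than 1 SE outside leaving out a library came from scaling by total counts alone. Without Malat1, the 9 genes' share differed by 2.74 percentage points for astrocytes minus progenitors and by -1.30 for progenitors minus stem cells, against 6.11 and -3.14 with it. With the 100 genes of highest count outside the denominator, these were 9.46 and -5.52, and without Gm37376, an alternative added after seeing the data, the first was 3.37.

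The lncRNA genes called outside the 9 were 171 between astrocytes and progenitors, 108 between progenitors and stem cells, and 2 between astrocytes and stem cells. DESeq2 called 302, 189 and 46. Without a count filter the first 2 were 15 and 62, and with at least 10 counts in every library 19 and 59. That last filter drops genes absent from one cell type. With all 12 libraries in one fit, 30 and 26 were called for the last 2 comparisons. Leaving out 1 library gave 117 to 270, 65 to 126 and 0 to 2, with 270 without astrocyte d, 65 without progenitor d and 0 without stem cell 3 or stem cell 4. In these last 2 fits edgeR found 91 and 84 such genes at an unadjusted p under 0.05.

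The share of lncRNA genes outside the 9 fell short of the threshold for astrocytes against stem cells without Gm26917 (0.491 percentage points) and without Gm26917, Gm42418 and AY036118 (0.417, an alternative added after seeing the data). Astrocytes against progenitors had an exact permutation p of 0.0286 under both, but 0.0857 after adjustment. For progenitors minus stem cells it changed sign against protein-coding counts (-0.104) and without overlapping genes (-0.0771), with p of 0.771 and 0.4 by the exact permutation test. Leaving out 1 library gave 0.957 to 1.08, -0.109 to 0.185 and 0.895 to 1.19 in the 3 comparisons, where 4 against 3 cannot reach below an exact permutation p of 0.0571. Of 34 calls of listed or named genes, 16 held in every fit without 1 library. With DESeq2 0 were lost, with median-of-ratios size factors 1, with thinned counts 2 (Hnrnpc and Snhg18 between astrocytes and progenitors), with scaling by total counts 8, without a count filter 11, and with all 12 libraries in one fit 13. With at least 10 counts in every library 9 were lost or no longer tested. No thinned value was obtained for Rian in astrocytes against stem cells. No paired analysis was possible because the astrocyte and progenitor columns carry no replicate numbers.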
